A study of Homo sapiens with 21 samples.

Results

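SPECC1 is the gene of cytospin-B, and its circular RNAs were the most abundant of any host gene in FaDu, an established line of hypopharyngeal squamous carcinoma. Every circRNA and every m6A (N6-methyladenosine) entry that the authors' deposited sheets list under the host name SPECC1 was taken. This gave 9 of 8714 circRNAs, with 870 of 45285 back-splice junction reads (1.92%), and 19 of 14885 m6A entries. SPECC1 was chosen by this abundance of junction reads, so its levels and ranks are described here without a test, and the tests below concern differences between groups.

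A circular RNA forms when the spliceosome joins the end of an exon back to the start of the same or an earlier exon. Reads across that back-splice junction do not match the exon order of the linear transcript, and they are what was counted. Cytospin-B carries coiled coils and a calponin homology (CH) domain, a fold found in many actin-binding proteins, and it is a relative of cytospin-A (SPECC1L), which binds actin and microtubules. IGF2BP3, the protein knocked down in this study, is an RNA-binding protein that recognises m6A-marked RNA.

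The circRNA libraries fall into 3 groups of 3, named A to C, all from FaDu cells. The shCtr libraries are labelled wild type with a blank control treatment, and the sh3-1 and sh3-2 libraries are labelled IGF2BP3 knockdown and were taken as a pair of hairpins. MeRIP libraries, in which an antibody enriches m6A-marked fragments for comparison with input RNA, were made as 6 pairs, each an IP with its input, 3 from sh3-2 and 3 from shCtr. The stated purpose was to find circRNAs that respond to IGF2BP3 by crossing both data types. The labels name neither the hairpin sequences nor whether lines were clonal, and they do not say that replicates were separate cultures, so p-values measure the spread between libraries, which may be technical.

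Junction reads per library ranged from 5023 to 5846 in shCtr and sh3-1 and from 3775 to 4168 in sh3-2. IGF2BP3 itself had 23 junction reads from 5 circRNAs, with 0 to 6 per library and 0 in replicate C of each group. IGF2BP3 mRNA was not analysed here, so the knockdown and the labelled cell type were not checked against their marker transcripts. Libraries sh3-1 A and B held 360 circRNAs found in no other library and sh3-2 B and C held 197, against 10 to 87 for the other 34 pairs.

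The abundant SPECC1 circle was hsa_circ_0000745, at chr17:20107646-20109225 on the plus strand (hg19), an exonic circle assigned to transcript NM_152904. Its predicted length of 1580 bases equals its genomic span, so nothing is spliced out within it in the authors' prediction. Of the 6093 exonic circRNAs, 262 (4.30%) shared that property, with a median length of 606.5 bases, and hsa_circ_0000745 was the 50th longest of them. It was also longer than 88.5% of all exonic circRNAs, whose median was 589 bases. The most-read of the other circRNAs of this kind was the circle of HIPK3, a homeodomain-interacting protein kinase, with 213 reads against 813.

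The other 8 SPECC1 circles held 57 reads together. They lie between 20107646 and 20200390 on chromosome 17, a span in which no circRNA of another host name and none on the minus strand was listed. Of the 9 SPECC1 circles, 7 are exonic and 2 intronic, and 5 carry a circBase ID. Start position 20107646 was shared by 6 of the 9, which held 851 reads (97.8% of SPECC1 reads), 38 of them outside hsa_circ_0000745. The rarer circles can be sorted by their ends.

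The first kind runs from the shared start into later exons. These are hsa_circ_0042426, to 20135718 with 2068 predicted bases and 16 reads, hsa_circ_0042428, to 20163607 with 2657 bases and 6 reads, and unnamed circles to 20150632 with 2315 bases and 5 reads and to 20200390 with 2774 bases and 4 reads. The second kind begins past the shared start. Here hsa_circ_0003545 spans 20149239 to 20163607 with 589 bases and 11 reads, and hsa_circ_0042437 spans 20156818 to 20163607 with 342 bases and 4 reads. The third kind is classed as intronic. One circle ends at 20109249, 24 bases past the end of hsa_circ_0000745, with 1604 bases and 7 reads, and another of 199 bases spans 20111333 to 20111531 with 4 reads.

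The predicted lengths can be rebuilt from the positions of the m6A entries. Entries that touched each other merged into 10 blocks along the gene, and the steps in length between nested circles were exactly sums of these blocks. From 1580 to 2068 bases the step was 488 bases in 3 blocks, then 247 bases in 2 blocks, 342 bases in 3 blocks and 117 bases in 1 block. The 589 bases of hsa_circ_0003545 were 5 blocks and the 342 bases of hsa_circ_0042437 were 3. In the authors' prediction the exonic circles thus nest on a single chain of blocks and differ in where they begin and end. The lengths and the entry positions both come from the authors' sheets, so their match is no independent check. Junction reads show the ends of a circle and not its inner exons.

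**Figure D1:**
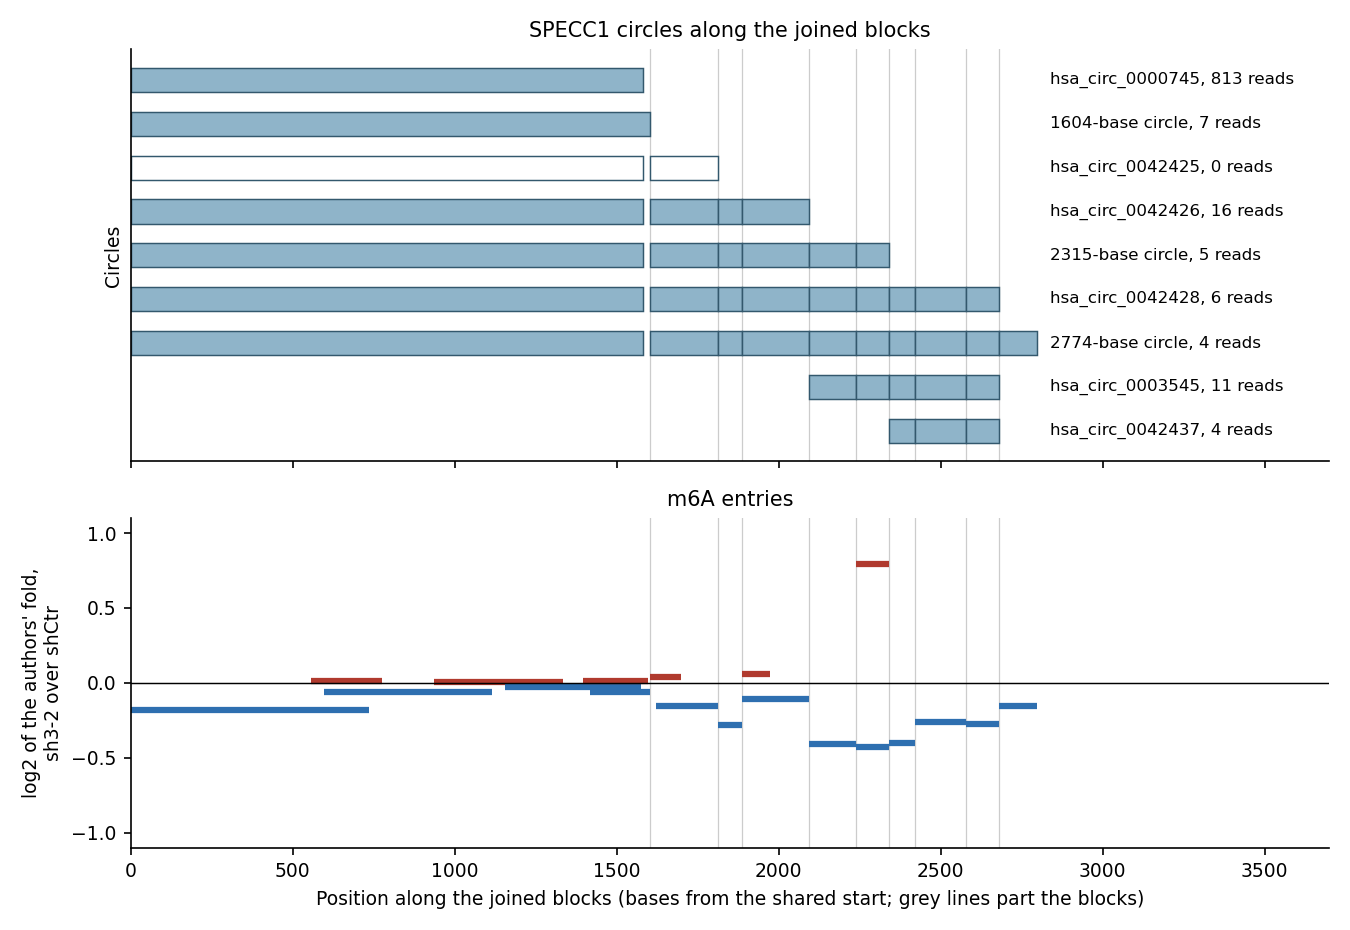
Upper panel: SPECC1 circles drawn along the joined blocks (x axis, bases from the shared start at 20107646), with the junction reads of each over the 9 libraries; the white bar is a circle with m6A entries and 0 junction reads, the 199-base intronic circle lies outside the blocks and is not drawn, and the gap before the second block is the 24 bases that the 1604-base circle alone includes. Lower panel: the 19 m6A entries at their positions, with the log2 of the authors' deposited fold of sh3-2 over shCtr on the y axis (red higher, blue lower); the entries under the first block lie close to 0, and the highest, at 0.79, shares its coordinates with one at −0.43.

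Counts of hsa_circ_0000745 were close in all 9 libraries. The controls had 101, 85 and 91 reads in A, B and C, the sh3-1 libraries 81, 90 and 109, and the sh3-2 libraries 101, 70 and 85. The 3 groups overlapped in raw reads, with means of 92.3 ± 8.08, 93.3 ± 14.3 and 85.3 ± 15.5 (SD, n = 3). Counting error alone would give SDs of 9.61, 9.66 and 9.24 (the square root of each mean). The control SD was below that value and those of the hairpins above it. Whether these SDs of 3 libraries differ from counting error was not tested.

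Per 1000 junction reads of its library, hsa_circ_0000745 took 18.4, 15.3 and 15.6 in shCtr A to C, 16.1, 15.4 and 19.0 in sh3-1, and 26.1, 18.5 and 20.4 in sh3-2. The Wilson 95% intervals, which cover counting error only, ran from 12.4 to 18.9 in shCtr B, the lowest library, and from 21.5 to 31.6 in sh3-2 A, the highest. Library sh3-2 A lay highest, with an interval above the values of the other 8, and the lowest sh3-2 library lay just above the highest control. Since RNA was pooled from many cells, a difference in the number of cells with the circle and a difference in copies per cell cannot be told apart.

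In every library hsa_circ_0000745 ranked 1 of all circRNAs and SPECC1 ranked 1 of all 3809 hosts. Its reads were 1.47 to 3.16 times those of the next circRNA in the same library. That neighbour was the circle of PLOD2, a collagen lysyl hydroxylase, in 7 libraries, of the pseudogene GUSBP1 in shCtr B and of the nonmuscle myosin gene MYH9 in sh3-2 A. The ratio averaged 1.97 ± 0.630 in shCtr, 1.75 ± 0.453 in sh3-1 and 2.70 ± 0.486 in sh3-2 (SD, n = 3), and the groups overlapped. Over all libraries the next circles were those of PLOD2 with 389 reads, GUSBP1 with 310, the arginyl-tRNA synthetase gene RARS with 250, HIPK3 with 213 and MYH9 with 185. As a host, SPECC1 was followed by PLOD2 with 459 reads, RARS with 325, GUSBP1 with 321, the membrane scaffold gene MPP6 with 241 and the mannosidase gene MAN1A2 with 239. Reads at a single junction do not scale with the length of the circle, so these levels are compared per junction.

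**Figure D2:**
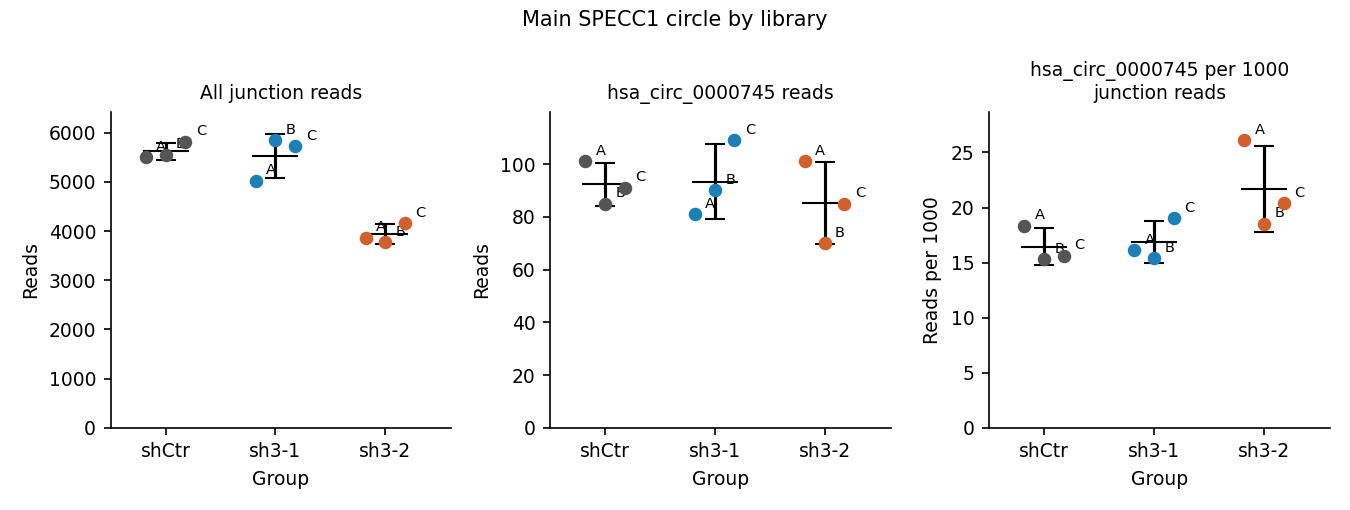
Each point is 1 library (letter A to C) of shCtr, sh3-1 or sh3-2, and bars give the mean ± SD of 3. From left to right the y axes give all junction reads, reads of hsa_circ_0000745, and its reads per 1000 junction reads: the sh3-2 libraries lie lowest in the first panel (3775 to 4168), overlap the others in the second (70 to 101) and reach 18.5 to 26.1 in the third.

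With sh3-1, hsa_circ_0000745 did not differ detectably from the controls. Its share was 16.8 ± 1.91 per 1000 reads against 16.4 ± 1.67 (2.49% higher; exact two-sided permutation p = 0.6, adjusted 0.875 over 15 such tests; the smallest p that 3 against 3 libraries allow is 0.1). In edgeR's quasi-likelihood fit of all circRNAs that passed its filter on low counts, the log2 fold change was −0.09 (SE 0.18, 95% interval −0.44 to 0.26, adjusted p = 0.890), and it was 0.03 with RLE size factors and 0.04 with library totals. Of 33 circRNAs tested 0 were called at an adjusted p under 0.05 (0%) and 2 had an unadjusted p under 0.05. DESeq2 called 0 and had 1 at that level. The median log2 fold change of the 33 was −0.09.

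With sh3-2 the share of hsa_circ_0000745 was 21.7 ± 3.94 per 1000 reads against 16.4 ± 1.67 in shCtr, 31.9% higher, and all 3 libraries lay above all 3 controls. The exact two-sided permutation p was 0.1 (adjusted 0.5), and 8 of the 77 circRNAs with reads in every library (10.4%) were separated in this direction. The raw reads were 7.58% lower (exact p = 0.7), while the sh3-2 libraries held fewer junction reads in all (3937 ± 205 against 5624 ± 170, exact p = 0.1). The share was higher where the library total was lower, and the part of the total in the share was not tested. In the edgeR fit the log2 fold change was 0.26 (SE 0.19, 95% interval −0.13 to 0.64, adjusted p = 0.734). Of 24 circRNAs tested 0 were called (0%) and 1 had an unadjusted p under 0.05. DESeq2 called 0 and had 2 at that level, hsa_circ_0000745 among them (DESeq2 unadjusted p = 0.0210, adjusted 0.252). With DESeq2 set to a mean dispersion its unadjusted p was 0.535. In edgeR the unadjusted p of the circle was 0.191, with RLE size factors 0.0724 and with library totals 0.0408. It was 0.0433 with a replicate block and 0.0198 in an edgeR fit of all 9 libraries. The median log2 fold change of the 24 was −0.09. Without shCtr A the log2 fold change was 0.45 and without shCtr B it was 0.13, neither of them a call.

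Between the hairpins, hsa_circ_0000745 took 28.7% more of the junction reads with sh3-2 than with sh3-1, and the groups overlapped (exact two-sided permutation p = 0.2, adjusted 0.75). The fit of all 9 libraries gave a log2 fold change of 0.48 (SE 0.21, 95% interval 0.07 to 0.89, unadjusted p = 0.0224, edgeR adjusted p = 0.477), against a median of 0.14 over the 37 circRNAs tested. It had the smallest p of the 37, of which 0 were called (0%) and 3 had an unadjusted p under 0.05. DESeq2 called 0 and had 2 at that level. In a fit of the 6 hairpin libraries alone it passed, with a log2 of 0.52 and an edgeR adjusted p of 0.0103. With RLE size factors the log2 fold change was 0.29 (unadjusted p = 0.0628), with library totals 0.31 (unadjusted p = 0.0633) and with DESeq2 0.29 (SE 1.71, unadjusted p = 0.867). DESeq2 was asked for its default parametric trend of dispersion and used a local fit. For the circle that trend was 6.02 against an own estimate of 1e-08, and the final dispersion was 2.09. The DESeq2 p is therefore not comparable with those of edgeR. Over the alternatives the adjusted p ran from 0.0103 to 1, and without sh3-2 A the log2 fold change was 0.16.

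These fits rest on few circRNAs. The circRNAs that passed the filter held 7.58% to 12.8% of a library's junction reads, and hsa_circ_0000745 itself made up 13.02% to 23.2% of the reads fitted, so its log2 fold change is relative to a set in which it is the largest member. It was the only 1 of the 9 SPECC1 circles to pass the filter in each comparison. In the authors' deposited table its log2 fold change was −0.26 with sh3-1 (p = 0.548, FDR 0.790) and 0.09 with sh3-2 (p = 0.840, FDR 1). That table lists 7 SPECC1 circles for sh3-1 and 9 for sh3-2, and in the authors' deposited table none of them had an unadjusted p under 0.05, against 72 of 7021 and 45 of 6648 circRNAs.

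Summed over its circles, SPECC1 had 111, 90 and 99 reads in the controls, 86, 93 and 115 with sh3-1, and 109, 80 and 87 with sh3-2. Per 1000 junction reads this was 17.8 ± 2.10 in shCtr, 17.7 ± 2.14 with sh3-1 and 23.4 ± 4.13 with sh3-2 (SD, n = 3). The shCtr and sh3-1 libraries overlapped (exact two-sided permutation p = 0.8, adjusted 1 over 6 tests). All 3 sh3-2 libraries (20.9 to 28.2) lay above all 3 controls (16.2 to 20.2), with an exact p of 0.1 (adjusted 0.6), as did those of 3 of the 35 hosts with enough reads to compare (8.57%). The difference of 5.61 per 1000 was 3.23 without sh3-2 A. Per 1000 reads of the circRNAs found in at least 2 libraries, the separation was lost: the controls had 30.8, 25.6 and 28.2 and the sh3-2 libraries 43.2, 27.2 and 28.9 (exact two-sided permutation p = 0.6). Per 1000 exonic junction reads it was kept. The controls had 25.1, 20.1 and 21.1 and the sh3-2 libraries 37.2, 25.9 and 26.4 (exact two-sided permutation p = 0.1).

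The edgeR fit of reads summed per host gave SPECC1 a log2 fold change of 0.01 with sh3-1 (SE 0.19, 95% interval −0.37 to 0.38, adjusted p = 0.993), a value that was −0.01 with library totals. With sh3-2 it was 0.36 against shCtr (SE 0.20, 95% interval −0.05 to 0.76, edgeR adjusted p = 0.716). Against sh3-1 it was 0.37 (SE 0.20, 95% interval −0.04 to 0.77, edgeR adjusted p = 0.498). Of 82, 58 and 102 hosts tested, 0 were called in each comparison (0%), while 6, 5 and 7 had an unadjusted p under 0.05. DESeq2 called 0 in each and had 4, 5 and 9 at that level. SPECC1 was among the 5 and the 9, with DESeq2 log2 fold changes of 0.39 against shCtr and 0.47 between the hairpins. Its DESeq2 p was the smallest of the 102 hosts between the hairpins. In edgeR with RLE size factors SPECC1 was at that level in both sh3-2 comparisons. With library totals this held between the hairpins only, and with a replicate block against shCtr only. With no filter, with at least 10 reads and with a mean dispersion in DESeq2 it held in neither. The fit of the 6 hairpin libraries alone gave 0.56 between the hairpins with an edgeR adjusted p of 0.0383, in a range over the alternatives of 0.0383 to 0.823.

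**Figure D3:**
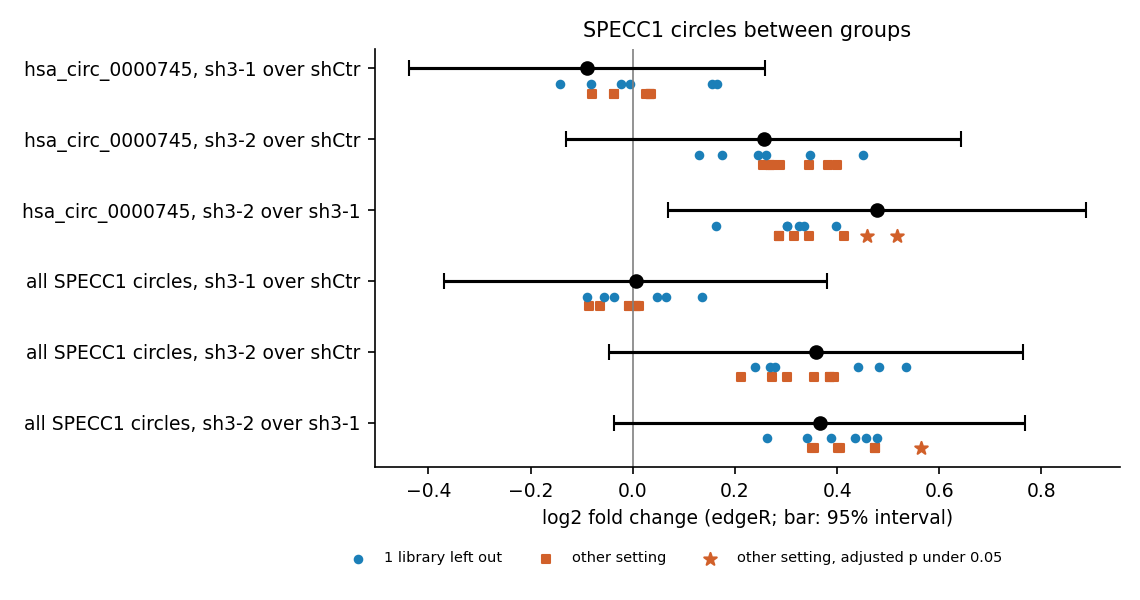
Log2 fold changes of hsa_circ_0000745 and of all SPECC1 circles summed (x axis) in each comparison of groups. Black points and bars are edgeR estimates with 95% intervals; blue points leave out 1 library, orange squares use another setting, and stars are other settings with an adjusted p under 0.05, which occur in the comparison of both hairpins alone.

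In each library hsa_circ_0000745 took most of the SPECC1 reads. Its part was 91.0%, 94.4% and 91.9% in shCtr A to C, 94.2%, 96.8% and 94.8% in sh3-1, and 92.7%, 87.5% and 97.7% in sh3-2. Against a control mean of 92.5 ± 1.79% this was 2.80 percentage points higher with sh3-1 (exact two-sided permutation p = 0.2) and 0.169 points higher with sh3-2 (exact p = 1), and the groups overlapped in both. Among the 19 next most-read hosts the top circle held 26.4% to 100% of the host's reads, with a median of 61.7%, and only those of MYH9 (100%), GUSBP1 (96.6%) and HIPK3 (96.4%) held more than the 93.4% of SPECC1.

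More kinds of circle were listed for SPECC1 than for most hosts, but it was chosen as the host with the most reads. Among the 19 next most-read hosts the number ran from 1 to 25. The 5 next hosts had 6 (PLOD2), 9 (RARS), 4 (GUSBP1), 14 (MPP6) and 7 (MAN1A2). A single circRNA was listed for 52.5% of hosts, 70 hosts (1.84%) had more than the 9 of SPECC1, and the highest number was 25, for the urea cycle gene CPS1. Per library, 4, 3 and 6 SPECC1 circles had reads in shCtr, 3, 3 and 4 with sh3-1, and 4, 5 and 3 with sh3-2. The means of 4.33, 3.33 and 4 did not separate the groups (exact two-sided permutation p = 0.7 and 1 against shCtr).

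The rarer circles had 10, 5 and 8 reads together in the controls, 5, 3 and 6 with sh3-1, and 8, 10 and 2 with sh3-2. As a share of SPECC1 reads they made up 7.67% in shCtr (Wilson 95% interval 5.16% to 11.2%), 4.76% with sh3-1 (2.86% to 7.83%) and 7.25% with sh3-2 (4.74% to 10.9%). The intervals take the reads of a group together and cover counting error only. Compared over libraries per 1000 junction reads, the rarer circles together had 1.36 ± 0.459 in shCtr, 0.852 ± 0.294 with sh3-1 (exact two-sided permutation p = 0.3, adjusted 0.75) and 1.73 ± 1.12 with sh3-2 (exact p = 0.7, adjusted 0.875), and the groups overlapped. A count of 0 in a library allows up to 0.513 to 0.795 reads per 1000, which is 3 counts of its total.

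Within that limit the rarer circles were scattered over the libraries. The most frequent, hsa_circ_0042426, had 6, 1 and 3 reads in shCtr, 2, 0 and 2 with sh3-1, and 0, 1 and 1 with sh3-2. The circle hsa_circ_0003545 had 0, 4 and 1 reads in shCtr, 3, 2 and 0 with sh3-1, and 1, 0 and 0 with sh3-2. No library had reads of every rare circle, and hsa_circ_0000745 alone was found in all 9.

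Some rarer circles had reads in few libraries. The 4 reads of hsa_circ_0042437 came from shCtr A (3) and shCtr C (1). The 4 reads of the 2774-base circle were all in sh3-2 A, and the 4 of the 199-base intronic circle were all in sh3-2 B. The 2315-base circle had 1 read in sh3-1 C and 4 in sh3-2 B, and hsa_circ_0042428 had 2 in shCtr C, 3 in sh3-2 A and 1 in sh3-2 B. The 1604-base circle, with its later end, had 1, 0 and 1 reads in shCtr, 0, 1 and 3 with sh3-1, and 0, 0 and 1 with sh3-2, so its 7 reads were spread over every group. None of them passed the filter of the fits, so a rarer circle has no edgeR test of its own.

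**Figure D4:**
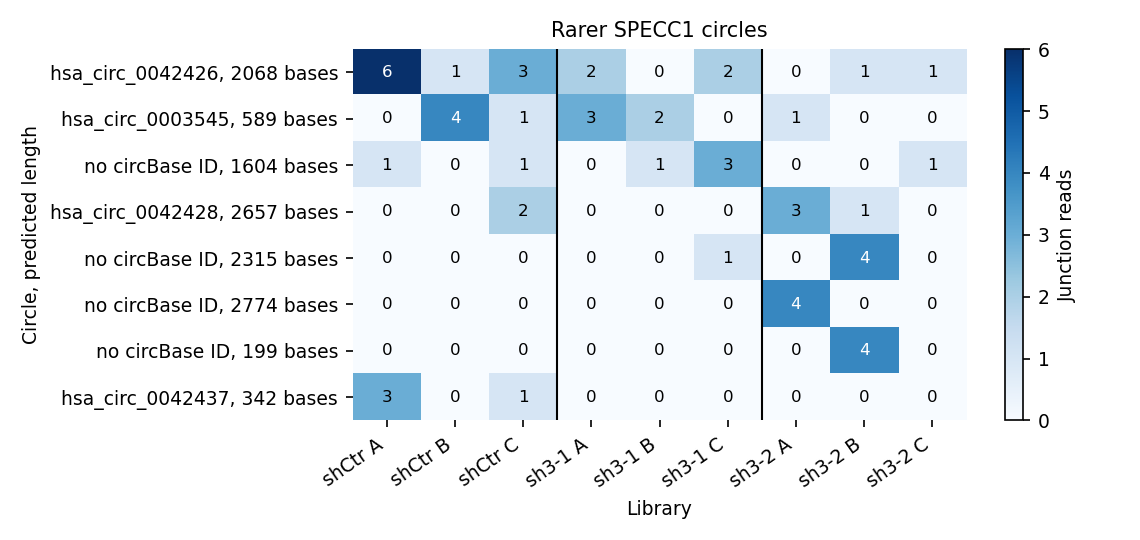
Junction reads of the 8 rarer SPECC1 circles (rows, with predicted length) in each of the 9 circRNA libraries (columns); the number in each cell and its shade give the reads. The highest cell holds 6 reads (hsa_circ_0042426 in shCtr A), and 2 of the circles have reads in a single library.

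The m6A entries on SPECC1 circles showed small differences between sh3-2 and shCtr. In the authors' deposited table, 6 of the 19 entries were higher and 13 lower with sh3-2 (68.4% lower, against 51.7% of all entries). The folds in the authors' deposited table ran from 1.00 to 1.73, with a median of 1.11 against 1.15 over all entries. Among the SPECC1 entries, the authors' deposited table gave 0 an FDR under 0.05, where 1340 of all 14885 did (9.0%), and 1 had an unadjusted p under 0.05, where 19.1% of all did. The m6A sheets hold no value per library, so no replicate spread can be given.

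On hsa_circ_0000745 there were 5 entries, which overlap and cover 1575 of its 1580 bases (99.7%). Of the 3331 circRNAs with entries, 70.4% had fewer, and the median was 2. In the authors' deposited table the first, at chr17:20107646-20108380, was 1.13-fold lower (p = 0.142, FDR 0.645), the largest of the 5. The next, at chr17:20108202-20108420, was 1.01-fold higher in the authors' deposited table, and that at chr17:20108242-20108760 was 1.04-fold lower. The last ones, at chr17:20108582-20108980 and chr17:20108802-20109220, were 1.00-fold higher and 1.02-fold lower in the authors' deposited table, with an FDR of 1 each. No entry on the abundant circle thus had an FDR under 0.05, and their directions were mixed.

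The other 14 entries lie on 6 circRNAs. The largest fold was at chr17:20150532-20150632, under the 2315-base circle, 1.73-fold higher in the authors' deposited table (p = 0.0176, FDR 0.165). The same coordinates are listed a second time in the authors' deposited table as 1.34-fold lower (p = 0.0918, FDR 0.500), and 201 of the 14636 distinct coordinates in those sheets (1.37%) are listed in both directions. The direction at this site is therefore not settled by the table. Its neighbour at chr17:20149239-20149384 was 1.33-fold lower in the authors' deposited table (FDR 0.731). The 3 entries of hsa_circ_0042428, between 20156818 and 20163607, were all lower in the authors' deposited table, by 1.20-fold to 1.32-fold, with no FDR under 0.958.

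The m6A entries cannot be tied to a particular circle. Entries under each longer circle that begins at 20107646 lie past the end of the next shorter one, except those of the 1604-base circle, which overlap entries of hsa_circ_0000745. Blocks between 20149239 and 20163607 also belong to hsa_circ_0003545 and hsa_circ_0042437, which have junction reads and no entry. Conversely, hsa_circ_0042425, from 20107646 to 20130933, has 2 entries and 0 junction reads, as do 438 circRNAs in the series. Linear SPECC1 RNA shares the same bases, and its reads cannot be told apart from those of circles away from the junction.

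Across the 9 libraries, the circle whose share of junction reads was most like that of hsa_circ_0000745 was the circle of HIPK3 at chr11:33307959-33309057 (Pearson r = 0.82 over 9 libraries, the highest of 76 circRNAs with reads in each; the median r was −0.07). It had 4.36, 2.52 and 5.67 reads per 1000 in shCtr A to C, 3.38, 3.59 and 5.06 in sh3-1, and 7.50, 5.56 and 6.0 in sh3-2. Library sh3-2 A was the highest for both circles and shCtr B the lowest, and the sh3-2 libraries overlapped the controls for HIPK3. Its log2 fold changes by edgeR were −0.24, 0.44 and 0.77 for sh3-1 and sh3-2 against shCtr and for sh3-2 against sh3-1, with adjusted p of 0.890, 0.815 and 0.552.

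The next most alike circles were those of FGD6, an exchange factor for CDC42 (r = 0.73), the ubiquitin ligase ANKIB1 (0.72), the transcriptional corepressor NAB1 (0.71) and the MAX-binding factor MGA (0.70). Among 34 other hosts with at least 5 reads in every library, the most alike to the SPECC1 total were HIPK3 (0.82), the casein kinase gene CSNK1G3 (0.73), the mitochondrial dehydrogenase gene DHTKD1 (0.71), the zinc finger gene ZKSCAN1 (0.58) and UBA2, a subunit of the SUMO-activating enzyme (0.58), against a median of 0.00. The shares of a library have its total in common, and the sh3-2 libraries have the smallest totals, so these values describe the libraries and carry no test.

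**Figure D5:**
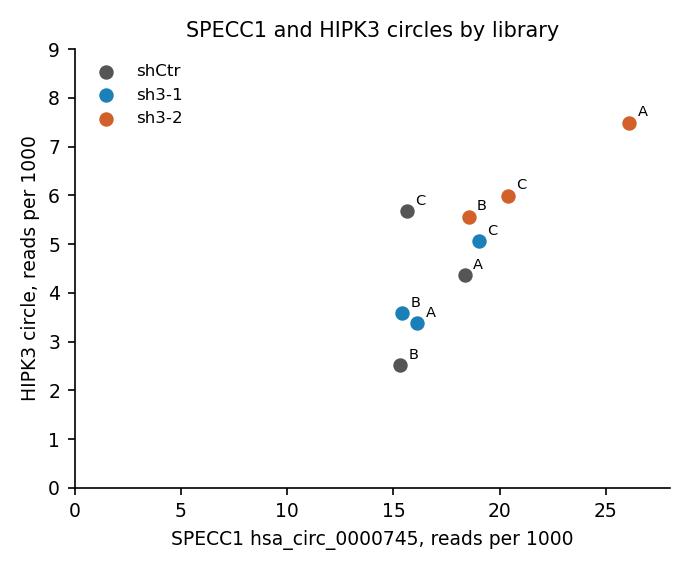
Reads per 1000 junction reads of hsa_circ_0000745 (x axis) and of the HIPK3 circle (y axis) in the 9 circRNA libraries (letters A to C, colours by group). The point for sh3-2 A lies highest on both axes (26.1 and 7.50) and that for shCtr B lowest on both (15.3 and 2.52).

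SPECC1 was chosen as the host with the most junction reads, so every other gene with a calponin homology domain had fewer by that choice. Of a list of 61 such genes, 24 had junction reads, 223 reads from 67 circRNAs in all, and 0 of them had enough reads for a host fit in any comparison, so no direction was tested. The highest were the scaffold gene IQGAP1 with 35 reads (13 in shCtr, 14 with sh3-1, 8 with sh3-2), LRCH3 with 24 (11, 9 and 4) and the spectraplakin gene DST with 21 (3, 16 and 2). The closest relative, SPECC1L, appeared under the readthrough name SPECC1L-ADORA2A with 11 reads from 4 circles (3, 6 and 2). RefSeq lists the pseudogenes SPECC1P1 and SPECC1P2 on the same chromosome as SPECC1, and the sources used here do not say how reads shared with such copies were assigned.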

How the data were processed

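CircRNA-seq (9 libraries) and MeRIP (12 libraries) of FaDu cells were used, 21 samples in all. Strand-specific libraries of RNA depleted of rRNA were sequenced as 150 bp pairs, per the labels' protocols, which name no removal of linear RNA. The submitters' processing notes name STAR 2.5.1b, cutadapt 1.9.3, edgeR 3.16.5 and hg19 without a role, and the sources used here give neither the circRNA caller nor the peak settings. Per the file headers, the deposited circRNA sheets hold whole-number counts of junction reads, not normalized. The authors also deposited a log2 fold change, a mean log2 CPM, a p-value and an FDR per circRNA. In the m6A sheets the authors deposited a fold ratio with its direction, a p-value with its FDR, a −log10 score of the p-value and a length; whether the fold is corrected for input is not stated. The 24 deposited log2 CPM columns per library were not used.

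Where a hairpin's sheets did not list a circRNA, its reads there were set to 0. This was checked on the controls, whose counts were identical for the 4955 circRNAs in both sheets, and on the deposited mean log2 CPM, which was recomputed to within 0.19. Start positions are 1-based. Libraries of a group differed by more than sampling noise (chi-square over its degrees of freedom 1.90 to 3.98), so none was treated as a repeat.

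Both hairpins were compared with shCtr in separate fits of 6 libraries. The hairpins were compared with each other in a fit of all 9. For circles this covered circRNAs listed for both, and for hosts the sums over all circRNAs with a host name. The tool was edgeR 4.0.16 (quasi-likelihood test, robust, TMM, filterByExpr, Benjamini-Hochberg over all tested, threshold 0.05) in R 4.3.3. Shares used all junction reads. They were tested by exact permutation, two-sided (SciPy 1.17.1), 15 on reads and shares and 6 on the SPECC1 total, its main share and its number of circles. Alternatives were RLE factors, library totals, DESeq2 1.42.0, other filters, another choice of libraries, a block on the library letter and leaving out each library. For m6A the test per library that was planned could not be run on these sheets, and the authors' calls are described.

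Named besides the SPECC1 entries were the 5 next circRNAs and hosts by reads, the 5 most alike in pattern by Pearson r, and the 3 most-read genes of the CH domain list with SPECC1L. CPS1 and IGF2BP3 were named after their values were seen. SPECC1 and the lists were chosen with earlier results of these data known. No circle sequence is printed.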

Additional observations from a re-analysis of the deposited data

How the results depend on the processing

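No SPECC1 comparison with shCtr passed its threshold in edgeR or DESeq2 under any alternative run, and those of sh3-2 kept their direction in every edgeR and DESeq2 fit: 0.26 to 0.40 for hsa_circ_0000745 and 0.21 to 0.39 for the SPECC1 total, and 0.13 to 0.45 and 0.24 to 0.53 with 1 library left out. For sh3-1 the sign was not stable. The log2 of hsa_circ_0000745 turned from −0.09 to 0.0343 with RLE factors, 0.0344 with DESeq2, 0.0342 with DESeq2 and a mean dispersion, 0.0257 with at least 10 reads and 0.0358 with library totals (−0.14 to 0.17 with 1 library left out). That of the SPECC1 total turned from 0.01 to −0.00784 with library totals, −0.00813 with at least 10 reads, −0.0856 with no filter and −0.0639 with all 9 libraries (−0.0904 to 0.13 with 1 left out). Between hairpins, the log2 of hsa_circ_0000745 shrank from 0.48 to 0.29 with RLE factors and DESeq2 and to 0.31 with library totals, none of these with an unadjusted p under 0.05. It passed with the 6 libraries (0.52, edgeR adjusted p = 0.0103) and with a replicate block on the letters (0.46, edgeR adjusted p = 0.0407), and lay between 0.16 and 0.40 with 1 library left out; the SPECC1 total passed with the 6 libraries (0.56, edgeR adjusted p = 0.0383) and lay between 0.26 and 0.48. The cause was not tested. Libraries of different groups were compared by log2 CPM after the group mean of each circRNA was subtracted. These deviations correlated at −0.10 to 0.41 over 40 circRNAs for same-letter libraries and at −0.42 to 0.10 for different-letter libraries. Between the hairpins the same-letter values were 0.29 for A, −0.07 for B and 0.41 for C. What the letters share was not tested. The block changed no other SPECC1 call. With 1 library left out, the difference in SPECC1 share with sh3-1 was −1.29 to 1.08 per 1000, that in the main share with sh3-2 −2.37 to 2.73 percentage points, and that in the number of circles with sh3-2 −1 to 0.5 (0.228 with libraries thinned to the smallest). The 0 m6A calls stayed 0 at an FDR of 0.01, with a fold of 2 and over distinct coordinates. DESeq2 with a mean dispersion was added after seeing the data. The default setting had used a local fit, with a trend of 6.02 for hsa_circ_0000745 against an own estimate of 1e-08 (final dispersion 2.09). Over all features, the 0 calls of sh3-2 against shCtr became 1 among 387 circRNAs at 10 reads, 1 among 58 hosts with RLE factors, library totals or the block, and at most 3 with 1 library left out. Over circRNAs found in at least 2 libraries, the difference in SPECC1 share was 4.89 per 1000 with sh3-2 (exact permutation p = 0.6, with the groups overlapping) and −2.90 with sh3-1 (exact p = 0.5). Over exonic junction reads only, that difference was 7.70 per 1000 with sh3-2 (exact permutation p = 0.1) and −0.38 with sh3-1 (exact p = 0.9). The rarer circles had 57 reads over 9 libraries, too few to enter the fits one by one.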
